A study of Mus musculus with 22 samples.

Results

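Loci whose mRNA had risen in mouse liver by 2 h after tunicamycin (Tm) were followed to 4 h and into heavy polysomes. Tm blocks N-linked glycosylation, so that proteins misfold in the endoplasmic reticulum (ER) and the unfolded protein response is switched on. Members were chosen from the authors' group means of scaled fragment counts. A locus was kept when its estimate was complete in the 6 groups used (total and heavy polysomal RNA at 0 h, 2 h and 4 h) and its mean over these groups was at least 50. It was a member when its log2(mean + 1) in total RNA was higher by at least 1, that is 2-fold, at 2 h than at 0 h. The rule found 68 members among 9383 loci with that mean level (0.725%), in a table of 39897 loci. The same loci held 25 with an equally large fall (0.266%), which are not described here.

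Each locus groups transcripts that overlap and carries an identifier from Cufflinks. The table pairs these with neither gene names nor positions, so members are described by their measurements, 4 are named by identifier, and the marker genes of liver and the known targets of the unfolded protein response were not analysed here.

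All groups were livers of 5-week-old C57BL/6 males. The 2 h and 4 h mice had received an intraperitoneal injection of 0.1 mg/kg Tm at 8 am and were culled at 10 am and at noon. The 0 h mice, called controls in the methods and listed with tunicamycin in the labels, were culled at 9 am, and whether they had been injected is not stated in the methods. Time after injection and time of day therefore cannot be told apart. Each of these groups has 3 total RNA libraries, and the methods give 3 animals per time point. Heavy polysomal RNA was pooled from gradient fractions with more than 3 ribosomes per mRNA and has 3 labelled libraries at 4 h but 2 at 0 h and at 2 h. Libraries held from 9788578 to 17283500 counted fragments. Another 6 libraries at 10 h were numbered separately in their table and were not used here.

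In the unfolded protein response, ER sensors act on transcription factors, which raise mRNAs of chaperones, of enzymes that degrade or modify secreted proteins, and of further stress regulators. One sensor, PERK, phosphorylates eIF2α and so lowers the start of translation on many mRNAs while that of a few is favoured. A rise in total mRNA and a rise on heavy polysomes are therefore separate measurements, and liver, which secretes much protein, is a common tissue in which to follow both.

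The rise at 2 h was modest for most members. It had a median of 1.23 on the log2 scale of the authors' means and reached 5.29. Because whole liver was sequenced, a change in the cells of a type and a change in RNA per cell cannot be told apart. Of the 68 members, 42 rose by less than 2.83-fold, 10 by between that and 4-fold, 11 by 4- to 8-fold and 5 by more than 8-fold. The member closest to the threshold went from a mean of 139 to 280 scaled counts, and the locus just outside, with a log2 change of 0.99, went from 198 to 394. These values chose the members and are given as a description. Together the members took up 1.06% of all scaled counts in total RNA at 0 h, a share that went up to 2.45% by 2 h and to 3.07% by 4 h.

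Single libraries carried this rise unequally. Of the 67 members with complete estimates in every library used, the 3 libraries at 2 h lay all above the 3 at 0 h in 56, where 9.34% of all loci with the same mean level did so, and the rule itself favours this. Replicate 1 was the highest of the 3 libraries at 2 h in 47 members, against 32.6% of all such loci, and replicate 3 was the lowest in 42. In log2(CPM + 0.5), where CPM is the count scaled to library size, relative to the 0 h mean, the median member stood at 1.60 in replicate 1, at 1.12 in replicate 2 and at 1.08 in replicate 3, and 64, 43 and 37 members reached 2-fold in these libraries. Without replicate 1 at 2 h, 42 of the 67 members still reached 2-fold, whereas 61 did without replicate 2 and 64 without replicate 3. Leaving out a 0 h library kept from 56 to 59. In all, 32 members reached 2-fold whichever of the 6 libraries was left out.

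**Figure D1:**
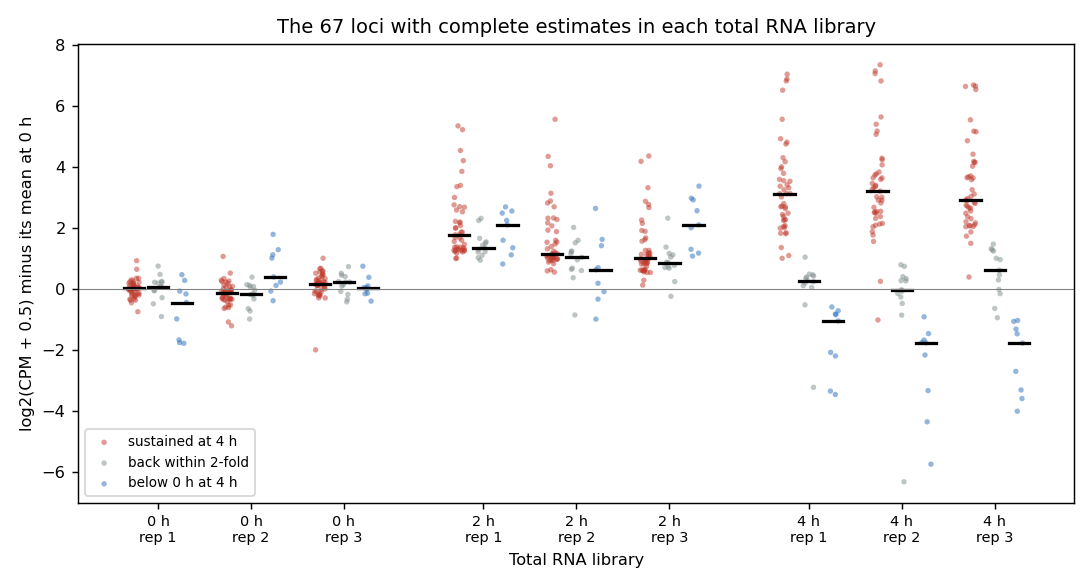
Values of the 67 members with complete estimates in each total RNA library (points), as log2(CPM + 0.5) minus its mean over the 0 h libraries, with black bars for medians, by their course at 4 h. At 2 h replicate 1 has the highest median of the loci sustained at 4 h (1.78), and replicate 2 stands at 1.16.

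By 4 h the members had parted. On the authors' means, 46 of the 68 were still at least 2-fold above 0 h (5.04% of the 9383 loci), 13 had come back to within 2-fold of it, and 9 were at least 2-fold below it (2.39%). They are called sustained, returning and undershooting loci here. The name returning marks only a 4 h mean within 2-fold of 0 h. From 2 h to 4 h the log2 change of these 13 ranged from -2.30 to -0.20. In 4 of the 13, all 4 h libraries still lay above all 0 h libraries (28.8% of all loci with the same mean level). The minimum mean that members had to reach takes in the 4 h groups, so a weak locus could enter by being high at 4 h, and the share sustained is favoured by the rule. Of the members, 8 lay under the minimum over the 4 groups at 0 h and 2 h, and all 8 were sustained. With the minimum set on those 4 groups, a choice made after the data were seen, 60 loci met the rule and 38 of them were sustained (4.48% of loci with that mean). With a minimum mean of 10 over all 6 groups, 58 of 102 were. On the authors' means every sustained locus was higher at 4 h than at 2 h, 36 of them by at least 2-fold (3.34% of all such loci). In 40 of 45 sustained loci with complete estimates, all 4 h libraries lay above all 2 h libraries (27.1% of all loci). A locus among the others was sustained through replicate 1 at 4 h, with 32.8, 0.906 and 3.23 CPM beside 4.91, 5.47 and 0.213 at 0 h. The median log2 change of sustained loci from 0 h went from 1.34 at 2 h to 3.01 at 4 h. For the returning loci the medians were 1.07 and 0.39. For the undershooting loci they were 1.57 and -1.59, with a range at 4 h from -4.55 to -1.13. Of the 68 members, 14 were at least 2-fold lower at 4 h than at 2 h (2.38% of all such loci). They were all 9 undershooting loci and 5 returning loci. For the 9 this fall follows from the definitions, a 2-fold rise at 2 h and a 2-fold deficit at 4 h. For the 5 the rule favours it through high 2 h means, so nothing is read from the excess. All 5 members above 8-fold were sustained, as were 8 of the 11 between 4- and 8-fold. So were 7 of the 10 between 2.83- and 4-fold and 26 of the 42 below 2.83-fold. The changes at 2 h and 4 h share the 0 h mean, and a larger rise must lose more to leave the sustained loci. This order is therefore favoured by the way the courses were set, and nothing is read from it.

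**Figure D2:**
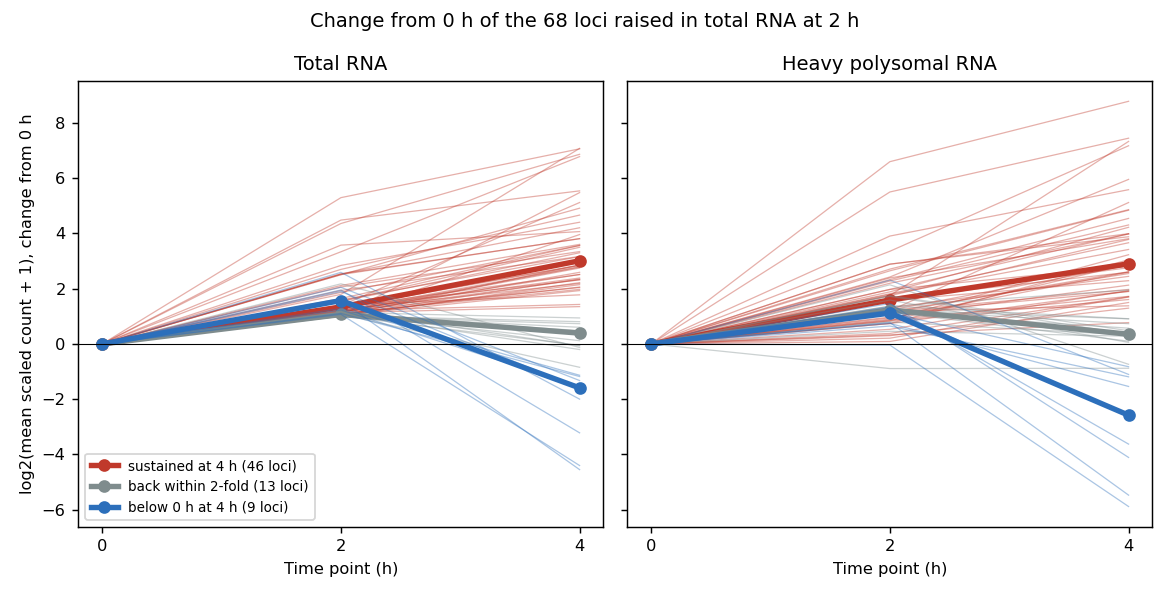
Change of each member from 0 h in log2(mean scaled count + 1) in total RNA (left) and heavy polysomal RNA (right), authors' group means. Thin lines are loci and thick lines the medians of the 46 sustained, 13 returning and 9 undershooting loci, which part between 2 h and 4 h in both kinds of RNA.

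The counts of single libraries were tested over 12606 loci by edgeR's quasi-likelihood test, and a call needed a 2-fold difference together with a p under 0.05 after Benjamini-Hochberg adjustment. At 4 h against 0 h, 44 of the 67 members were called higher and 8 lower, where 5.08% and 3.47% of all loci tested were. The 3 libraries at 4 h lay all above those at 0 h in 48 members (28.8% of all loci with the same mean level) and all below in 8 (22.2%). At 4 h against 2 h, 35 members were called higher and 12 lower, beside 3.63% and 3.17% of all loci. The libraries of these time points did not overlap in 40 members that were higher at 4 h (27.1% of all loci) and in 14 that were lower (19.0%). The first comparison shares the 0 h libraries with the rule and the second the 2 h libraries, so that a chance low value at 0 h or a chance high value at 2 h enters both. Without replicate 2 at 4 h, 4 members were called lower against 0 h in place of 8. In these 2 comparisons the members called lower were all undershooting loci at 4 h against 0 h, and 9 undershooting and 3 returning loci at 4 h against 2 h.

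The steepest rise at 2 h belonged to XLOC_032013. Its normalised CPM were 1.16, 0.243 and 2.66 at 0 h, from 4 to 25 fragments per library, and 63.6, 74.0 and 31.8 at 2 h. At 4 h they were 178, 256 and 146 in total RNA and 249, 416 and 249 in heavy polysomal RNA. Each time point lay wholly above the one before, which for 2 h against 0 h was a condition for naming the locus. Its log2 fold change was 1.78 (SE 0.34, adjusted p = 0.00298, edgeR) at 4 h against 2 h and 7.36 (SE 0.51, adjusted p = 1.7e-06) against 0 h. The locus was picked for its rise from 0 h, which favours a low p against 0 h.

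XLOC_018480 rose second most and was picked for that rise under the same condition, which favours a low p against 0 h. It had 3.95, 3.64 and 6.71 CPM at 0 h and 190, 83.6 and 50.5 at 2 h, where replicate 1 stood well above the other libraries. At 4 h total RNA held 241, 254 and 181 CPM and polysomal RNA 202, 208 and 259. The 2 h and 4 h values overlapped, since the highest library at 2 h exceeded the lowest at 4 h. Its log2 fold change was 5.60 (SE 0.47, adjusted p = 6.23e-06, edgeR) at 4 h against 0 h and 1.06 (SE 0.36, adjusted p = 0.0478) against 2 h. The second call was lost in 10 alternatives, 7 of them fits without 1 library, with adjusted p from 2.77e-06 to 0.128 over all alternatives. Without 1 library its log2 fold change against 2 h ranged from 0.72, without replicate 3 at 2 h, to 1.75, without replicate 1 at 2 h.

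**Figure D3:**
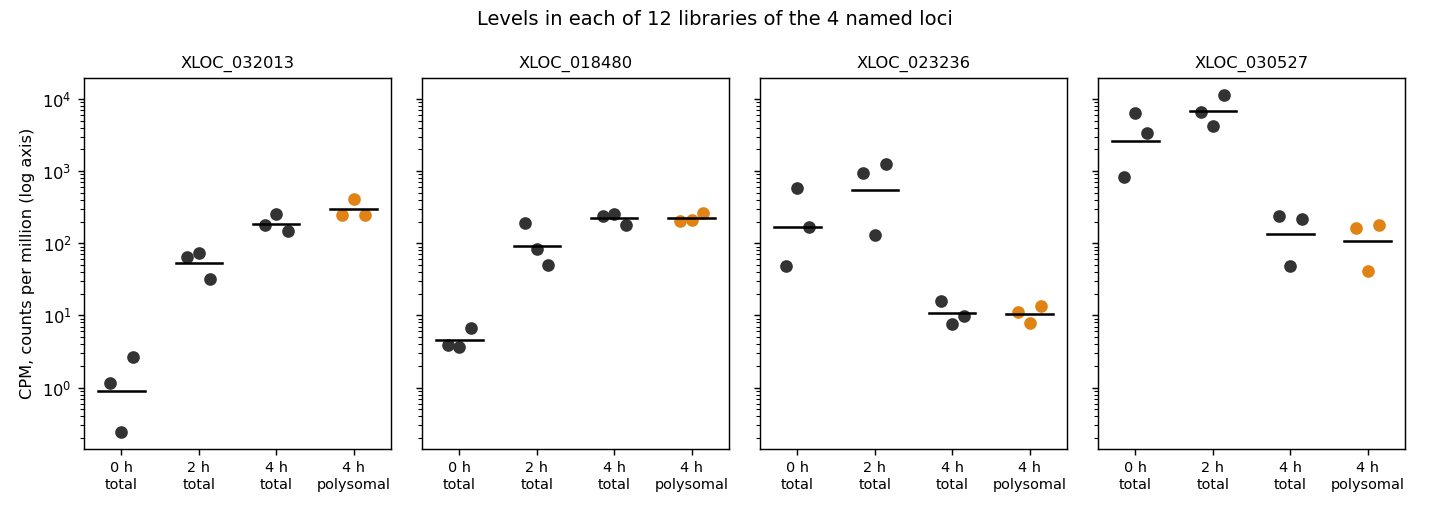
Normalised CPM (log axis) of 4 named loci in each of 12 libraries, with 3 per group; bars are geometric means, dark points total RNA and orange points heavy polysomal RNA. XLOC_032013 and XLOC_018480 climb to 4 h, while XLOC_023236 and XLOC_030527 overlap between 0 h and 2 h and are lowest at 4 h.

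Other sustained loci differed in when they climbed. The sustained locus with the highest FPKM (fragments scaled to locus length and library depth, a level that allows for length) held 490 ± 97.7 (SD, n = 3) at 0 h, 1245 ± 268 at 2 h and 3373 ± 363 at 4 h. In CPM its libraries rose from between 1215 and 1794 at 0 h to between 3037 and 4661 at 2 h and between 10120.4 and 11661 at 4 h, without overlap. A weakly expressed member climbed almost wholly after 2 h. It had 5.20, 3.46 and 5.11 CPM at 0 h and 33.5, 9.89 and 4.98 at 2 h, so that it reached the threshold through replicate 1, and then 663, 715 and 518 at 4 h. Its log2 fold change from 2 h to 4 h was 5.29 (SE 0.50, adjusted p = 3.21e-05, edgeR), the largest rise of any member in the authors' means over that interval. It was picked for that rise, which favours a low p.

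The largest falls from 2 h to 4 h were at XLOC_023236 and XLOC_030527. Both were picked for that fall and for 4 h libraries that lay wholly below those at 2 h. Their separation and low p against 2 h are therefore favoured by the choice. XLOC_023236 had 48.2, 578 and 166 CPM at 0 h, 939, 132 and 1270 at 2 h, and 15.9, 7.66 and 9.89 at 4 h. The 0 h and 2 h libraries overlapped and each spread widely, while those at 4 h lay below all of them. The log2 fold change was -6.13 (SE 0.99, adjusted p = 0.00104, edgeR) at 4 h against 2 h and -4.57 (SE 0.94, adjusted p = 0.00317) against 0 h. XLOC_030527 was among the most abundant members, at an FPKM of 5021 ± 3894 (SD, n = 3) at 0 h, 9428 ± 4253 at 2 h and 252 ± 159 at 4 h. Its CPM were 825, 6420 and 3420 at 0 h, 6700, 4260 and 11300 at 2 h, and 238, 48.4 and 217 at 4 h. It too overlapped between 0 h and 2 h and was lower at 4 h, with a log2 fold change of -5.46 (SE 0.78, adjusted p = 0.000468, edgeR) against 2 h and of -4.40 (SE 0.74, adjusted p = 0.000902) against 0 h.

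The undershooting loci as a group varied most at each time point. At 0 h the SD of log2(CPM + 0.5) over the 3 libraries had a median of 0.44 in them, 0.30 in the sustained loci and 0.13 in all loci with the same mean level. In the same order these medians were 0.89, 0.39 and 0.16 at 2 h, and 0.51, 0.21 and 0.12 at 4 h. The 0 h SD lay above 0.404, the 95th percentile of all such loci, in 6 of 9 undershooting, 6 of 13 returning and 13 of 45 sustained loci. In 6 of the 9, replicate 1 was the lowest library at 0 h, and in 5 of the 9, replicate 3 was the highest at 2 h. The 2 h libraries lay wholly above the 0 h libraries in 3 of the 9, in 12 of 13 returning and in 41 of 45 sustained loci, beside 9.34% of all such loci. At 4 h the libraries of 8 of the 9 lay wholly below those of both earlier time points, which their definition by a low 4 h mean favours. Of all such loci, 22.2% lay wholly below 0 h and 19.0% wholly below 2 h. The part of the differences between single mice in the rise of these loci was not tested.

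Returning loci were mostly those with small rises, which the way the courses were set favours, so nothing is read from it. Of the 13, 12 rose by less than 2.83-fold at 2 h, as did 42 of all 68 members, and 3 were called lower at 4 h than at 2 h. The returning locus with the largest rise at 2 h had 52.8, 29.3 and 63.3 CPM at 0 h. At 4 h it had 4.48, 0.0824 and 129, so that its place among the returning loci rests on replicate 3 at 4 h. One abundant member of this set met the rule through a single library. It had 2441, 2277 and 1664 CPM at 0 h, and 9960 in replicate 1 at 2 h beside 1161 and 1775 in the others. Without that library its log2 change at 2 h was -0.54, and in its polysomal mean the change at 2 h was -0.89.

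Heavy polysomes were then examined. For polysomal RNA at 0 h and 2 h the table holds 3 read groups and does not tie them to the 2 labelled libraries, so only the authors' means are given, with no test. Polysomal and total RNA with the same number at 4 h deviated together, and so are not independent samples. On heavy polysomes 66 of the 68 members were higher at 2 h than at 0 h and 47 were so by at least 2-fold, beside 1.88% of all 9383 loci, while 0 were at least 2-fold lower, beside 2.59%. The members had a median log2 change of 1.27. The exceptions were XLOC_030527, at -0.04, and the member carried by a single library, at -0.89. The methods give 3 animals per time point, so a chance difference between mice in total RNA can recur on polysomes. This holds at 2 h and, through the 0 h mice, at 4 h. The polysomal means also entered the minimum mean. The rule thus favours higher polysomal values, and nothing is read from the excess over all loci. All 16 members that rose more than 4-fold in total RNA were at least 2-fold higher on polysomes as well, against 24 of the 42 that rose by less than 2.83-fold. At 4 h, 46 were at least 2-fold higher (6.61% of all loci) and 8 at least 2-fold lower (4.88%) on polysomes than at 0 h. By course, 45 of the 46 sustained loci and 1 of the 13 returning loci were higher, and 8 of the 9 undershooting loci were lower. The median change on polysomes at 4 h was 2.90 for sustained, 0.35 for returning and -2.58 for undershooting loci. Members made up 1.42% of all scaled polysomal counts at 0 h and went up to 2.33% by 2 h and to 2.97% by 4 h.

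**Figure D4:**
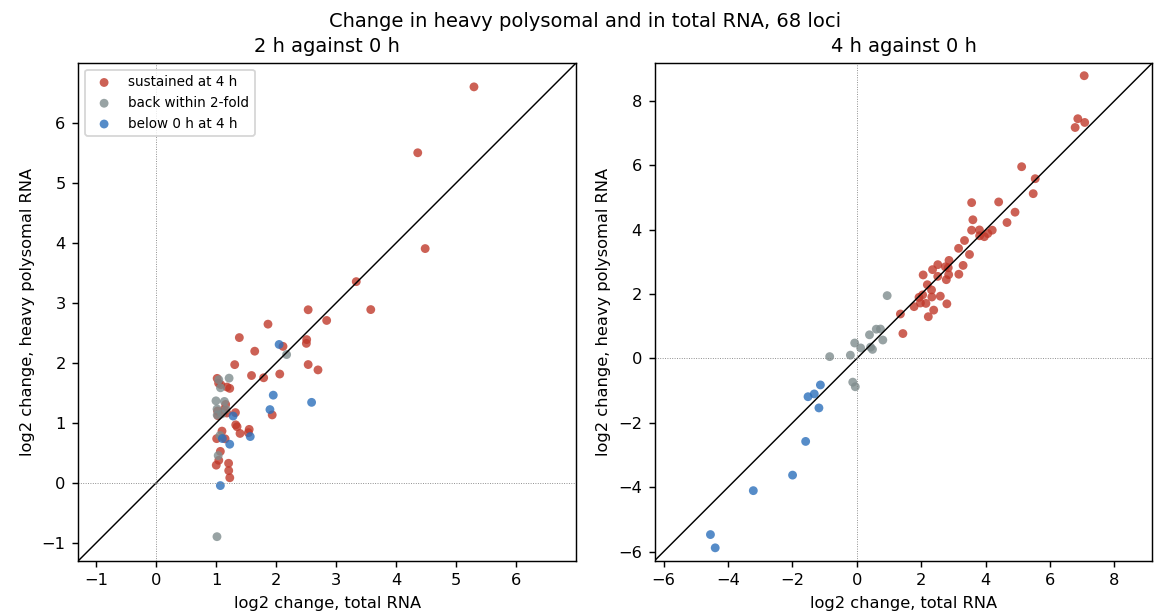
Log2 change from 0 h of the 68 members in heavy polysomal RNA (vertical) against total RNA (horizontal) at 2 h and at 4 h, authors' group means; the line marks equal change. At 2 h the members spread on either side of the line, 45 of them within 1.5-fold of it, and at 4 h 50 of them are. Of all loci, 9.22% lay at least 1.5-fold above it and 10.3% below at 2 h, and 3.41% and 8.0% at 4 h.

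The polysomal over total ratio, as log2(mean + 1) of polysomal minus that of total RNA, moved by less than 1.5-fold for most members, as it did for most of all loci. Its change at 2 h had a median of -0.13, beside 0.04 in all loci. It is the polysomal change less the total change, and members were chosen for a large total change, which favours lower values, so nothing is read from the excess of lower over higher ratios. It stayed within that in 45 members, was higher by at least 1.5-fold in 8 (9.22% of all loci) and lower in 15 (10.3%). At 4 h the median change was -0.03, with 6 higher (3.41%) and 12 lower (8.0%). Moves of at least 1.5-fold thus took up a larger share of members than of all loci at both times, which is given as a description. The changes at 2 h and at 4 h share the 0 h means, which the rule also used. XLOC_032013 had the largest gain at both times, 1.30 at 2 h and 1.72 at 4 h, from a ratio of -1.06 at 0 h. Its polysomal mean at 0 h was 5.86 scaled counts, so that this ratio rests on few fragments.

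The ratios by course are given as a description, since a low total mean at 0 h and a high one at 2 h, which the rule favours, raise the ratio at 0 h and lower it at 2 h, and the 0 h libraries of the undershooting loci varied most. The median ratio of these loci was 0.72 at 0 h, beside 0.11 for sustained and -0.09 for returning loci, and 6 of the 9 were at least 1.5-fold above an even ratio, as were 14.1% of all loci, and 0 were 1.5-fold below it, as were 16.0%. The median ratio of the 9 was 0.07 at 2 h and -0.06 at 4 h. At 2 h 4 of the 9 had a ratio lower by at least 1.5-fold, and at 4 h 5 had. Of the 46 sustained loci, 10 had a ratio lower by at least 1.5-fold at 2 h and 7 a higher one, and at 4 h 5 had a lower and 4 a higher one. Of the 10, the changes at 2 h of some are given here. One had a total change of 1.23 and a polysomal change of 0.09, from a ratio of 0.86 at 0 h, and another had 1.21 and 0.21, from a ratio of 1.28. At 4 h both were more than 2-fold higher on polysomes than at 0 h.

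Heavy polysomal and total RNA at 4 h each have 3 libraries. Both entered the rule through the minimum mean but not through the 2-fold difference. The edgeR test over 12575 loci called 1 of the 67 members higher and 1 lower in polysomal RNA, where 1.34% and 3.18% of all loci were called. DESeq2 called the same numbers. These fits left out the pairing of same-numbered libraries. With the replicate number as a block in edgeR, 0 were called higher and 1 lower. With no minimum fold change and no block 9 were higher and 5 lower, beside 11.6% and 14.7% of all loci. At an unadjusted p under 0.05 there were 24, beside 39.4% of all loci, and 34 in the blocked fit, beside 46.8%. The median log2 ratio of the members was 0.04. Polysomal libraries lay all above the total libraries in 14 members (22.9% of all loci) and all below in 9 (25.6%).

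The member called higher was an undershooting locus with 19.8, 15.9 and 29.5 CPM in polysomal and 13.0, 8.16 and 11.2 in total RNA, a log2 ratio of 1.02 (SE 0.24, adjusted p = 0.0107, edgeR) that was 0.99 in the blocked fit, under the 2-fold minimum. The member called lower was the returning locus carried by a single library at 2 h. It had 693, 638 and 568 CPM in polysomal and 2265, 2537 and 1347 in total RNA, without overlap, and a log2 ratio of -1.70 (SE 0.21, adjusted p = 0.000384, edgeR). In the authors' means its ratio was already -0.86 at 0 h.

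**Figure D5:**
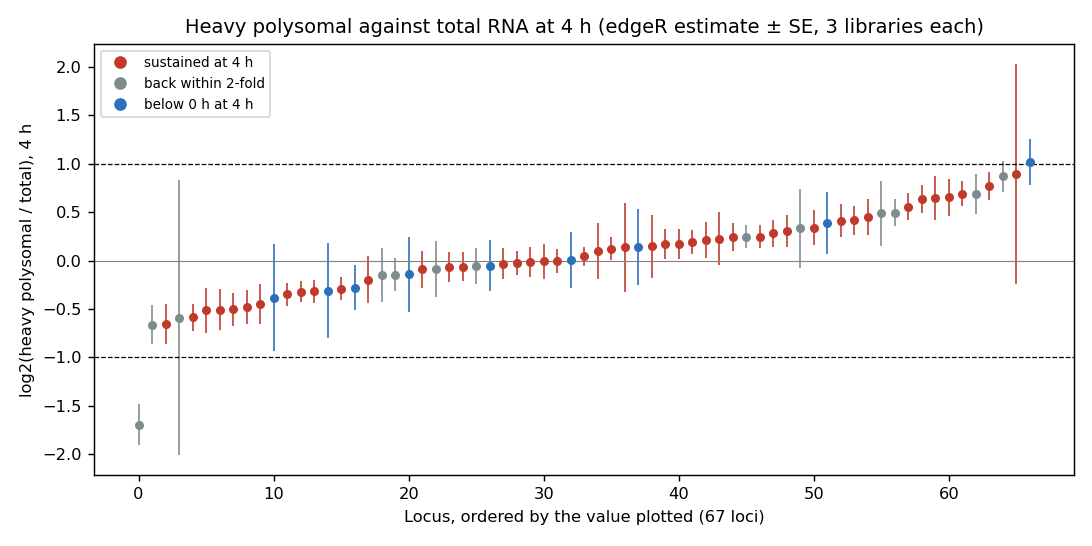
Log2 of heavy polysomal over total RNA at 4 h for 67 members, ordered by value, as edgeR estimates with standard errors from 3 libraries of each kind. The fit shown is the one without the replicate block. Dashed lines mark 2-fold; 1 member lies above and 1 below them.

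The length of a locus was not used by the rule. Relative length, estimated from fragments per FPKM and set to the median locus, had a median of 0.743 beside 1.01 in all loci with the same mean level, and 46 of 67 were shorter than the median locus. It was 0.747 in sustained, 0.866 in returning and 0.319 in undershooting loci, which were the shortest set. Levels at 0 h, which the rule did use, were low, with a median FPKM of 4.26 beside 9.44, and 27 of 67 lay above the median of all such loci. Sustained loci had the lowest median at 0 h, 2.57, and the highest at 4 h, 70.5. Undershooting loci had the highest at 0 h, 20.9, reached 57.7 at 2 h and stood at 9.64 at 4 h. The minimum mean over 6 groups lets a locus with a low start enter through the groups in which it is high, so low levels at 0 h are favoured by the rule. One pair of members had consecutive locus numbers, and both were undershooting loci.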

How the data were processed

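The authors aligned reads with TopHat2 2.0.13 to GRCm38 and ran Cufflinks 2.2.1, per the submitters' processing notes and the methods. The authors deposited raw fragment counts per locus and read group, FPKM values, and group means of counts scaled by library size, a signal. Read groups were tied to labelled samples by group and number; 69 of 81 were not used, being outside the labelled samples or, for polysomal RNA at 0 h and 2 h, not tied to them. The deposited comparison columns (fold changes, p-values) and the 10 h tables were not used. Tests left out 54 loci, 1 member among them, whose estimate was incomplete in any library used.

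Members and lists were chosen with earlier results of these data known. Tests on counts used edgeR 4.0.16 under R 4.3.3 (TMM, filterByExpr, quasi-likelihood, Benjamini-Hochberg): total RNA at 3 time points in 1 fit of 9 libraries, and polysomal against total RNA at 4 h in 6 libraries. CPM are TMM-normalised over 12 libraries. The steps were tested on simulated data. Same-numbered total and polysomal libraries at 4 h deviated together, with correlations from 0.345 to 0.384 over loci where pairs of unlike number had -0.26 to -0.091. The numbers thus pair those libraries. Between total RNA at 0 h and 2 h, pairs of the same number had 0.028 to 0.298 and pairs of unlike number -0.241 to 0.171. These ranges overlapped, as they did between the other time points of total RNA, so the main fits did not pair time points by number. Named loci are the 2 with the largest rise at 2 h whose libraries did not overlap, and the 2 with the largest fall from 2 h to 4 h whose libraries did not overlap, each with a mean of at least 50 counts; other members are given by their place in an order or chosen after their values were seen, without identifiers. Alternatives were DESeq2 1.42.0, other scalings, filters, pseudocounts and thresholds, a replicate block, and fits that each omitted 1 library. Since libraries were scaled to 1 level, a shift of all mRNAs together cannot be seen. P-values measure the spread between these samples.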

Additional observations from a re-analysis of the deposited data

How the results depend on the processing

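The choice of members depended on the threshold and on 1 library. A 1.5-fold rule gave 231 loci, 136 of them at least 2-fold above 0 h at 4 h, with median polysomal changes of 0.776 at 2 h and 1.266 at 4 h and a median relative length of 0.951. A 3-fold rule gave 23 loci, 18 of them still high at 4 h, with polysomal medians of 2.277 and 3.984, a median change in the polysomal over total ratio of 0.183 at 4 h and a relative length of 0.515. A pseudocount of 8 moved the polysomal medians to 1.462 and 2.32, and minimum means of 10 and 200 moved that at 4 h to 1.554 and 2.548. Means of TMM-normalized counts gave 64 loci, all 64 of them members. Between 49 and 81 loci met the rule when 1 library was omitted, the lowest without replicate 1 at 2 h, when 43 of them were members. In total RNA at 4 h the members called higher against 0 h numbered 43 to 45 and those called lower 4 to 9, the lowest without replicate 2 of total RNA at 4 h; against 2 h, 32 to 42 were higher and 11 to 13 lower. Upper-quartile scaling moved the median of all loci from -0.024 to -0.147 at 4 h against 0 h, where 499 loci were then higher and 619 lower in place of 640 and 438, with 44 members higher and 8 lower. Between polysomal and total RNA at 4 h, no minimum fold change gave 9 members higher and 5 lower, the replicate block 0 higher, and leaving out each library 0 to 2 higher and 1 lower. The replicate block changed no other call of a named locus and gave 44 higher and 8 lower at 4 h against 0 h, and 37 and 13 against 2 h. XLOC_018480 lost its call at 4 h against 2 h in 10 alternatives, with a log2 fold change from 0.72 to 1.75 when a library was left out. The median change in the polysomal over total ratio at 4 h, -0.03, was near 0 and positive with a pseudocount of 8 (0.01), a minimum mean of 200 (0.028), the 3-fold rule and a minimum mean over the 0 h and 2 h groups alone (0.012, chosen after seeing the data), and the cause was not tested. The fold changes of the 4 named loci at 4 h against 0 h and 2 h kept their direction in the alternatives tried. Libraries numbered 3 per group, and this, the few fragments of weak members at 0 h and the lack of single polysomal libraries at 0 h and 2 h limit these results.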
